A study of Mus musculus with 24 samples.

Results

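Early light was compared with early dark in the hearts of male Clock delta 19/delta 19 mice: the 4 hearts taken at zeitgeber time 3 (ZT03), 3 h after lights on, against the 4 hearts taken at ZT15, 3 h after lights off. These 8 hearts belong to a series of 24, with 4 hearts at each of 6 time points 4 h apart (ZT03, ZT07, ZT11, ZT15, ZT19 and ZT23), chosen here by the time point in their labels and not by any measured value. All 24 mice were male and 8 weeks old, were kept under 12 h of light and 12 h of darkness, and carried the same homozygous Clock mutation, so every difference described is one between times of day within the mutant, and wild-type hearts were not analysed here. Transcripts of the myocardium were measured on single-colour arrays, 1 array per heart, and the labels call the 4 hearts of a time point biological replicates.

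CLOCK and its partner BMAL1 (Arntl) bind E-box elements and drive the genes of their own repressors, the PER and CRY proteins, together with many output genes. The delta 19 form of CLOCK lacks the part encoded by 1 exon and pairs with BMAL1 but hardly activates transcription, so the feedback loop runs poorly in homozygotes. Mice are active and feed mostly in the dark, and light, feeding, activity and body temperature reach the heart also by routes other than its own clock. ZT03 is then early in the resting phase and ZT15 early in the active phase.

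Each value below is a feature's log2 value minus that feature's median over the 24 arrays, averaged over the features of a gene. It is called the centred value, because the authors deposited centred numbers. Such values hold no level, so genes cannot be ranked by abundance, and the log base was not stated: all sizes would be 1.44 times larger if it were e. Differences are ZT03 minus ZT15 from a limma fit of the 6 time points, with the standard error (SE) of the fit, and a gene passed the test at an adjusted p of at most 0.05 after Benjamini-Hochberg adjustment over the 22180 genes measured. Array medians lay between -0.0080 and 0.0023, 0 pairs of arrays held identical values, and the residuals of any pair correlated at 0.249 at most. Over genes, the SD within a time point had a median of 0.087, and the number of arrays limits the precision. Of 9 markers of cardiomyocytes, 8 lay above 8 before centring on every array, a class that holds 461 of the 22180 genes. It also held 2 of 8 endothelial, 2 of 6 pericyte, 1 of 9 fibroblast, 1 of 6 atrial and 1 of 9 skeletal muscle markers and 0 in the other 9 marker lists. The class was read only from the coarser steps of the stored numbers, and a gene outside it may still lie above 8. The Clock transcript itself, whose probes have no stated position relative to the mutation and so check nothing, had centred values of 0.085, 0.12, 0.062 and 0.004 in ZT03 hearts and -0.12, -0.029, 0.004 and 0.029 in ZT15 hearts, which overlap.

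Between early light and early dark, 239 genes passed the test, 1.08% of all genes. Of these, 195 were higher at ZT03 (0.879% of all genes) and 44 were lower (0.198%). The actin-severing gene Scin was the largest of the higher genes and the small nuclear RNA Rnu12 the largest of the lower ones. Differences were modest: the median size was 0.35 among the 195 higher genes and 0.30 among the 44 lower genes, and 11 and 5 of them reached 1.5-fold (0.58 on the log2 scale). In 190 of the 195 higher genes and 43 of the 44 lower genes the 4 ZT03 hearts did not overlap with the 4 ZT15 hearts at all. Among all genes, 4.62% had every ZT03 heart above and 3.41% every ZT03 heart below the ZT15 hearts (8.03% together). The genes passed on these same hearts, so their separation follows largely from the test and adds no support. The median difference over all genes was -0.0051, and at an unadjusted p under 0.05 there were 1765 genes with a positive difference (7.96%) and 1120 with a negative one (5.05%). The count rests heavily on single hearts: without ZT03 replicate 3 it was 25 genes, 24 of them among the 239, and without ZT03 replicates 1 or 2 or ZT15 replicates 2, 3 or 4 it lay between 52 and 106. Of the 55 genes past the threshold that the rule for named genes picks, 14 kept their call whichever heart was left out and the other 41 lost it without ZT03 replicate 3. A fit of the 8 hearts alone called 107 genes, 79 of them among the 239.

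**Figure D1:**
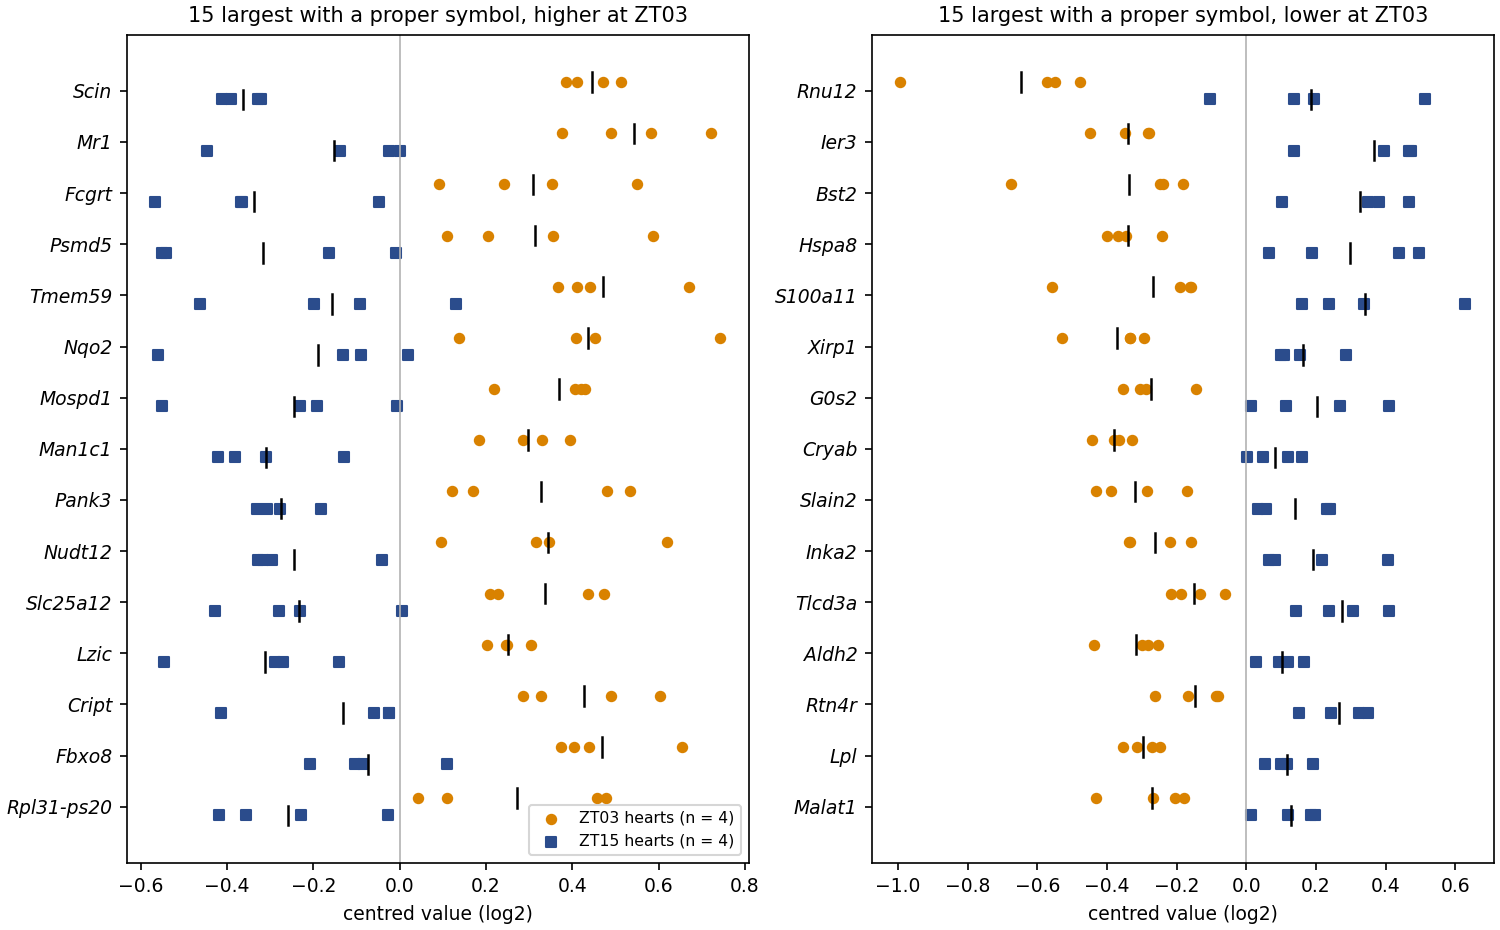
Centred log2 values (x axis) of each ZT03 heart (orange circles, n = 4) and each ZT15 heart (blue squares, n = 4) for the 15 largest differences in each direction among genes past the threshold that have a proper symbol (not a clone or gene-model name), with the group means as black bars. In every gene drawn the ZT03 hearts lie to one side of the ZT15 hearts, with Scin and Rnu12 farthest apart at 0.81 and -0.83.

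Genes of the actin cytoskeleton and the contacts between cardiomyocytes stood at both ends. Scin codes for scinderin, a calcium-dependent protein of the gelsolin family that severs and caps actin filaments. Scin lay at 0.47, 0.41, 0.51 and 0.39 in ZT03 hearts, against -0.39, -0.33, -0.41 and -0.32 in ZT15 hearts. The hearts of each time point lay within a narrow band and the bands were far apart, a difference of 0.81 ± 0.12 (SE), or 1.75-fold higher at ZT03 (adjusted p with limma 0.00597). Cfl2, the muscle form of the filament-severing protein cofilin, was also higher, by 0.25 ± 0.059 (adjusted p = 0.0414), with ZT03 replicate 4 at 0.009 just above the highest ZT15 heart at 0.005. Without ZT03 replicate 3 the adjusted p of Cfl2 was 0.119 and the call was lost. Scin and Cfl2 were 2 of 11 measured genes of the gelsolin and severing group, whose median difference was 0.050. Xirp1, which codes for the Xin repeat protein that binds actin at the intercalated disc, ran the other way: -0.53, -0.29, -0.33 and -0.33 in ZT03 hearts, against 0.11, 0.099, 0.29 and 0.15 in ZT15 hearts. Every ZT03 heart of Xirp1 lay well below every ZT15 heart (-0.53 ± 0.082, adjusted p = 0.00597, 1.45-fold lower). Among 26 Z-disc and stretch genes Xirp1 was lower and Cfl2 higher, and the median was -0.019. Tmem65, which codes for a membrane protein of the intercalated disc, was the gene that passed among 15 junction genes, at 0.27, 0.30, 0.40 and 0.21 in ZT03 hearts and 0.12, -0.096, -0.062 and -0.024 in ZT15 hearts (0.31 ± 0.050, adjusted p = 0.00768). The connexin gene Gja1 had a difference of similar size, 0.32 ± 0.10, and did not pass (adjusted p = 0.143). Of 23 genes of the thick and thin filaments 0 passed at an adjusted p of 0.05. Here 1 positive and 3 negative differences had an unadjusted p under 0.05, against 7.96% and 5.05% of all genes.

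Chaperone genes contributed some of the clearest lower values at ZT03. Cryab codes for αB-crystallin, a small heat shock protein that protects desmin and titin in muscle. As the mean of 2 features of the array, Cryab had the smallest p-value of all genes. Its centred values were -0.33, -0.44, -0.38 and -0.37 in ZT03 hearts, against 0.001, 0.12, 0.047 and 0.16 in ZT15 hearts. All ZT03 hearts lay more than 0.3 below the lowest ZT15 heart in this gene (-0.46 ± 0.056, adjusted p with limma 0.00152, 1.38-fold lower). Hspa8, the constitutively made HSP70 chaperone, lay at -0.24, -0.37, -0.34 and -0.40 in ZT03 hearts, against 0.19, 0.50, 0.066 and 0.44 in ZT15 hearts (-0.64 ± 0.10, adjusted p = 0.00776). The ZT03 hearts of Hspa8 were close together, whereas those of ZT15 spread widely above them. Cryab was 1 of 6 small heat shock genes to pass and Hspa8 1 of 14 HSP70, HSP90 and HSP110 genes. Over 45 measured chaperone genes in 4 lists 2 passed, both lower, where 0.198% of all genes passed as lower. At an unadjusted p under 0.05 there were 12 negative differences and 1 positive one, against 5.05% and 7.96% of all genes. The median difference was -0.045. The mitochondrial chaperonin gene Hspd1 (-0.23 ± 0.058, adjusted p = 0.0546) and the small heat shock gene Hspb1 (-0.21 ± 0.054, adjusted p = 0.0634) narrowly missed the threshold, each with all ZT03 hearts below all ZT15 hearts. The heat-inducible Hspa1a overlapped between the groups, at -0.087, 0.17, -0.32 and -0.44 in ZT03 hearts and 0.32, -0.06, 0.006 and 0.87 in ZT15 hearts. Hspb7, a cardiac small heat shock gene, had a positive difference of 0.28 ± 0.10 that did not pass. Several of these genes are measured by more than 1 feature of the array, which agreed in sign and differed in size: -0.23 and -0.69 for the pair of Cryab, and -0.19, -0.61, -0.87 and -0.88 for the 4 of Hspa8. Taken singly, the pair of Cryab had unadjusted p-values with limma of 0.00874 and 1.32e-05.

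The 5 genes that passed on the lists of proteasome, ubiquitin and autophagy genes were higher at ZT03, as were 81.6% of all genes that passed. Psmd5 codes for an assembly chaperone of the proteasome's regulatory particle and lay at 0.59, 0.20, 0.36 and 0.11 in ZT03 hearts, against -0.008, -0.55, -0.54 and -0.16 in ZT15 hearts (0.63 ± 0.13, adjusted p = 0.0243). The groups of Psmd5 did not overlap, but both were wide. Psma1, a subunit of the proteasome's outer ring, differed by 0.36 ± 0.083 (adjusted p = 0.04). Psmd5 and Psma1 were the genes that passed among 38 of the proteasome, of which 6 had positive and 4 negative differences at an unadjusted p under 0.05, with a median of 0.0014. Atg12 codes for a ubiquitin-like protein that is joined to ATG5 during autophagosome formation. It lay at 0.15, 0.31, 0.43 and -0.025 in ZT03 hearts, against -0.049, -0.29, -0.33 and -0.32 in ZT15 hearts, with ZT03 replicate 4 and ZT15 replicate 1 close to each other (0.46 ± 0.093, adjusted p = 0.0238). Atg12 was 1 of 29 autophagy genes to pass, 9 had positive and 2 negative differences at an unadjusted p under 0.05, and the median was 0.066. Over all genes 0.879% passed as higher, and 7.96% had positive and 5.05% negative differences at that unadjusted level. Rb1cc1, a scaffold of the autophagy-initiating kinase complex, missed the threshold at 0.24 ± 0.059 (adjusted p = 0.0523). The proteasome-bound deubiquitinase Usp14 (0.29 ± 0.064, adjusted p = 0.0306) and the ubiquitin-conjugating enzyme Ube2d3 (0.27 ± 0.066, adjusted p = 0.0493) were higher, 2 of 20 genes of ubiquitin conjugation and SUMO removal. All 5 of these calls were lost without ZT03 replicate 3, with adjusted p-values of 0.0794 for Psmd5, 0.133 for Psma1, 0.0879 for Atg12, 0.0777 for Usp14 and 0.165 for Ube2d3.

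**Figure D2:**
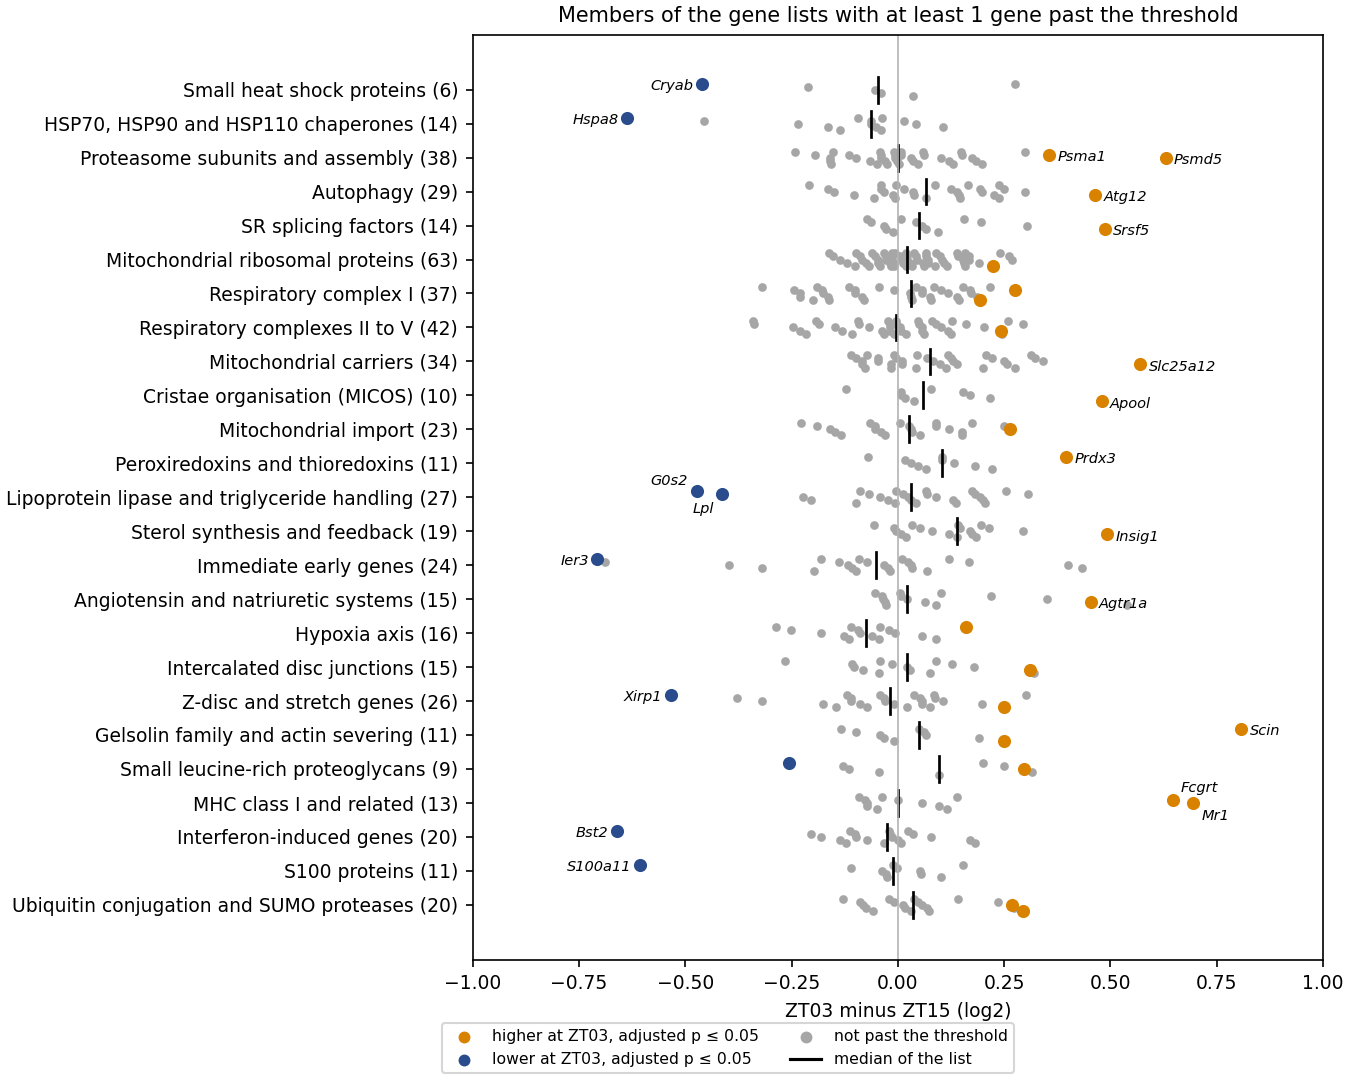
ZT03 minus ZT15 on the log2 scale (x axis) for each measured member of the 25 gene lists with at least 1 gene past the threshold, with the number of measured genes in parentheses. Orange points are higher at ZT03, blue points lower, grey points did not pass, and black bars are the medians of the lists, which run from -0.075 to 0.14 and most points did not pass.

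The genes that passed on the lists of mitochondrial proteins were also higher at ZT03, as were 81.6% of all genes that passed. Outside these lists mitochondrial genes passed in both directions. Uqcc2 and Aldh2 were lower, and Vdac2, Crls1, Dld, Coq3, Coa3, Atp5mpl, Aldh5a1 and Mtrf1l were among the higher ones. The features of Aldh2 differed in sign, as described below. Prdx3 codes for the mitochondrial peroxiredoxin that breaks down hydrogen peroxide, and lay at 0.36, 0.33, 0.39 and 0.42 in ZT03 hearts, against 0.16, -0.024, -0.14 and -0.079 in ZT15 hearts (0.40 ± 0.062, adjusted p = 0.00605). ZT15 replicate 1 came closest to the ZT03 hearts. Slc25a12, the aspartate-glutamate carrier of the malate-aspartate shuttle, was 0.21, 0.23, 0.47 and 0.44 in ZT03 hearts, against 0.005, -0.23, -0.43 and -0.28 in ZT15 hearts (0.57 ± 0.11, adjusted p = 0.0177). Apool, a component of the complex that shapes the cristae, had 0.41, 0.38, 0.53 and 0.22 in ZT03 hearts and -0.021, -0.13, -0.23 and 0.021 in ZT15 hearts (0.48 ± 0.091, adjusted p = 0.0186). Neither Slc25a12 nor Apool overlapped between the groups. Smaller differences passed for Uqcrc2, a core protein of complex III (0.24 ± 0.044), and for the complex I subunits Ndufs1 (0.19 ± 0.038) and Ndufb5 (0.28 ± 0.058). Timm23, the channel protein of the inner membrane translocase (0.26 ± 0.060), and the mitochondrial ribosomal protein gene Mrpl51 (0.22 ± 0.054) passed as well, and the adjusted p of these 5 genes ran from 0.0169 for Uqcrc2 to 0.0447 for Mrpl51. Prdx3 kept its call whichever heart was left out, whereas the other 7 lost it without ZT03 replicate 3, with adjusted p-values from 0.0582 for Uqcrc2 to 0.102 for Timm23.

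Genes of the respiratory chain stood on both sides. Of 37 complex I genes 2 passed, and at an unadjusted p under 0.05 there were 6 positive and 7 negative differences, with a median of 0.032. Of 42 genes of complexes II to V 1 passed, and 6 had positive and 8 negative differences at that level, with a median of -0.0043. Those on the negative side included the complex II subunit gene Sdhc at -0.34 ± 0.092 (adjusted p = 0.0763) and Ndufa8 at -0.32 ± 0.11 (adjusted p = 0.187), neither of which passed. Mitochondrial ribosomal proteins and carriers had 10 of 63 and 8 of 34 positive and 0 negative differences at an unadjusted p under 0.05, with medians of 0.021 and 0.076. The shares of all genes at that level were 7.96% positive and 5.05% negative. Slc25a40 came next among the carriers at 0.31 ± 0.077 (adjusted p = 0.0514). Of 36 cytosolic ribosomal protein genes 0 passed, with Rpl15 nearest at 0.26 ± 0.065 (adjusted p = 0.0563), and 2 positive and 3 negative differences had an unadjusted p under 0.05.

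Lipid genes changed in both directions. Lpl codes for lipoprotein lipase, which releases fatty acids from circulating triglycerides, and lay at -0.25, -0.27, -0.31 and -0.36 in ZT03 hearts, against 0.054, 0.19, 0.10 and 0.12 in ZT15 hearts. The hearts of each time point agreed closely and the groups were 0.30 apart at their nearest (-0.41 ± 0.063, adjusted p = 0.00597, 1.33-fold lower). G0s2, an inhibitor of the triglyceride lipase ATGL, lay at -0.31, -0.14, -0.35 and -0.29 in ZT03 hearts and 0.27, 0.013, 0.11 and 0.41 in ZT15 hearts (-0.47 ± 0.11, adjusted p = 0.0467). Of 27 genes of triglyceride handling these 2 passed, and the median was 0.031. Insig1, which holds the SREBP precursors in the endoplasmic reticulum and so restrains sterol synthesis, was 0.21, 0.21, 0.20 and 0.23 in ZT03 hearts, against -0.10, -0.28, -0.29 and -0.44 in ZT15 hearts. The 4 ZT03 hearts of Insig1 were almost identical and all ZT15 hearts lay below 0 (0.49 ± 0.11, adjusted p = 0.0306). It was the 1 gene to pass among 19 of sterol synthesis. Of these 19, 5 had positive and 0 negative differences at an unadjusted p under 0.05, against 7.96% and 5.05% of all genes. Their median of 0.14 was the highest of the lists with a gene past the threshold. Pank3, a pantothenate kinase that starts coenzyme A synthesis, was higher by 0.60 ± 0.11 (adjusted p = 0.0177). Lpl kept its call whichever heart was left out. Without ZT03 replicate 3 the adjusted p was 0.143 for G0s2, 0.0887 for Insig1 and 0.0685 for Pank3, and those calls were lost.

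The largest difference of all genes did not pass. Acot2, which codes for a mitochondrial acyl-CoA thioesterase, lay at 0.30, 0.49, 1.06 and 1.29 in ZT03 hearts, against 0.13, -1.42, -1.02 and -0.70 in ZT15 hearts. All ZT03 hearts were above all ZT15 hearts, but each group spread over about 1 log2 unit or more, and the difference of 1.54 ± 0.39 had an adjusted p of 0.0567. With Acot2, 7 of 23 fatty acid oxidation genes had positive differences at an unadjusted p under 0.05 and 1 a negative one, and 0 passed after adjustment. At the unadjusted level 7.96% of all genes were positive and 5.05% negative. Zbtb16, a transcription factor induced by glucocorticoids, was another wide difference that did not pass: -0.84, -0.67, -1.02 and -0.42 in ZT03 hearts, against -0.073, 0.12, 0.075 and 0.18 in ZT15 hearts (-0.81 ± 0.25, adjusted p = 0.126). The groups of Zbtb16 did not overlap, and in the fit of the 8 hearts alone its adjusted p was 0.0364.

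RNA-binding and non-coding genes held the largest lower value. Rnu12 codes for U12, the small nuclear RNA of the minor spliceosome, and lay at -0.57, -0.48, -0.99 and -0.55 in ZT03 hearts, against 0.20, 0.14, 0.51 and -0.10 in ZT15 hearts. The groups did not overlap, although ZT03 replicate 3 lay far below and ZT15 replicate 3 far above their own groups (-0.83 ± 0.20, adjusted p = 0.0447, 1.78-fold lower). Malat1, an abundant nuclear long non-coding RNA, was -0.27, -0.21, -0.18 and -0.43 in ZT03 hearts and 0.014, 0.20, 0.12 and 0.19 in ZT15 hearts (-0.40 ± 0.065, adjusted p = 0.00776). Srsf5, an SR protein that regulates splicing, was higher at ZT03, at 0.26, 0.31, 0.13 and 0.10 in ZT03 hearts, against -0.23, -0.50, -0.069 and -0.35 in ZT15 hearts (0.49 ± 0.089, adjusted p = 0.0169). It was 1 of 14 SR factor genes to pass. By the kind of gene, 186 higher and 39 lower genes were protein-coding, of 18961 such genes measured, and 5 higher and 4 lower were long non-coding RNAs, of 1926. Of 80 small nucleolar RNAs 0 passed with limma, with a median of 0.075. At an unadjusted p under 0.05, 20 had positive and 4 negative differences, against 7.96% and 5.05% of all genes. Rpl31-ps20, a pseudogene of a ribosomal protein, was among the 15 largest higher genes with a proper symbol (0.53 ± 0.11, adjusted p = 0.0306), but its probes may also bind the transcript of Rpl31, so its value is uncertain. Malat1 and Srsf5 kept their call whichever heart was left out, but without ZT03 replicate 3 the adjusted p of Rnu12 was 0.165 and that of Rpl31-ps20 0.0639.

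Few genes on the signalling lists passed, and those lists leave out other signalling genes that did, such as Map2k6 and Rela. Ier3, an immediate early gene that responds to stress and growth signals, lay at -0.45, -0.28, -0.35 and -0.28 in ZT03 hearts, against 0.47, 0.40, 0.14 and 0.47 in ZT15 hearts (-0.71 ± 0.12, adjusted p = 0.0135, 1.63-fold lower). It was 1 of 24 immediate early genes to pass. Btg2, an antiproliferative gene of the same group, had nearly the same difference, -0.69 ± 0.19, and did not pass (adjusted p = 0.0787), and Egr1 had -0.018, -0.034, 0.094 and 0.006 in ZT03 hearts, against 0.26, 0.36, 0.084 and 0.93 in ZT15 hearts. ZT15 replicate 4 stood above the other ZT15 hearts in Egr1. Agtr1a, which codes for the type 1 angiotensin II receptor, was higher at ZT03, at 0.24, 0.16, 0.18 and 0.25 in ZT03 hearts, against 0.034, -0.37, -0.46 and -0.20 in ZT15 hearts (0.45 ± 0.095, adjusted p = 0.0262). Its ZT03 hearts were close together and its ZT15 hearts spread over about 0.5. Of the other 14 measured genes of the angiotensin and natriuretic systems 0 passed with limma, while 2 stood below 0.05 before adjustment, one of them the clearance receptor Npr3 (0.35 ± 0.088, adjusted p = 0.0563). Hif1a, the oxygen-regulated transcription factor, was higher by 0.16 ± 0.036 (adjusted p = 0.0327), while its target Vegfa (-0.25 ± 0.086, adjusted p = 0.176) had a negative difference that did not pass. The NF-kappa B subunit gene Rela lay at -0.20, -0.12, -0.076 and -0.21 in ZT03 hearts and 0.14, 0.004, 0.25 and 0.17 in ZT15 hearts and was lower (-0.29 ± 0.062, adjusted p = 0.0276). Ier3 kept its call whichever heart was left out, while without ZT03 replicate 3 the adjusted p was 0.0794 for Agtr1a, 0.0927 for Hif1a and 0.0639 for Rela.

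Immune, matrix and calcium-binding genes passed singly rather than as groups. Fcgrt, the neonatal Fc receptor that recycles IgG and albumin, lay at 0.092, 0.24, 0.55 and 0.35 in ZT03 hearts, against -0.047, -0.57, -0.37 and -0.37 in ZT15 hearts, and Mr1, which presents vitamin metabolites to a class of T cells, at 0.58, 0.49, 0.72 and 0.38 in ZT03 hearts, against 0.001, -0.14, -0.45 and -0.025 in ZT15 hearts. Neither gene overlapped between the groups (adjusted p = 0.0238 and 0.0166). The other 11 measured genes of MHC class I and its relatives did not pass, and the median of all 13 was -0.00049. Bst2, an interferon-induced protein that tethers budding viruses, was -0.24, -0.18, -0.25 and -0.68 in ZT03 hearts, against 0.38, 0.35, 0.47 and 0.10 in ZT15 hearts (-0.66 ± 0.13, adjusted p = 0.0238). It was 1 of 20 interferon-induced genes to pass. S100a11, a calcium-binding protein, was lower at -0.61 ± 0.14 on the log2 scale (adjusted p = 0.035) and was 1 of 11 S100 genes to do so. In both Bst2 and S100a11, ZT03 replicate 4 lay well below the other ZT03 hearts. Among 9 small proteoglycans, decorin (Dcn) was higher (0.30 ± 0.072, adjusted p = 0.0469) and biglycan (Bgn) lower (-0.26 ± 0.056, adjusted p = 0.0306), while Ogn (0.31 ± 0.094) and Lum (0.25 ± 0.10) did not pass. Without ZT03 replicate 3 the adjusted p of these 6 genes that had passed ran from 0.0622 for Bgn to 0.17 for Dcn, above the threshold. Of 21 collagen genes 0 passed with limma. At an unadjusted p under 0.05, 2 had negative and 0 positive differences, against 5.05% and 7.96% of all genes.

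Few markers of other cell types passed, and Dcn among them is also one of the proteoglycans above. Of 9 fibroblast markers 2 were higher, Dcn and the mesenchymal transcription factor Prrx1, which lay at 0.15, 0.072, 0.16 and 0.24 in ZT03 hearts, against -0.088, -0.34, -0.065 and -0.31 in ZT15 hearts (0.36 ± 0.062, adjusted p = 0.0122). The mean over the 9 markers ran from 0.030 to 0.14 in ZT03 hearts and from -0.081 to 0.029 in ZT15 hearts. Their single differences ran from -0.075 to 0.36, with a median of 0.12. In bulk tissue, fewer cells of a type and less RNA per cell cannot be told apart, and the part of fibroblasts in the matrix genes was not tested. The muscle creatine kinase gene Ckm, listed with skeletal muscle but also abundant in heart, was lower (-0.36 ± 0.084, adjusted p = 0.0389, and 0.143 without ZT03 replicate 3), 1 of 9 in that list. The mean over these 9 markers ran from -0.090 to -0.022 in ZT03 hearts and from 0.017 to 0.030 in ZT15 hearts. Ckm had the largest of their differences, and only Ckm had an unadjusted p under 0.05. The median difference of the list was -0.022 and the highest 0.019. Prrx1 kept its call whichever heart was left out. Of the cardiomyocyte markers 0 of 9 passed, with list means from -0.092 to 0.036 in ZT03 hearts and from -0.016 to 0.048 in ZT15 hearts, and the other 12 marker lists held 0 genes that passed with limma. Atrial markers varied widely within groups, with list means from -0.17 to 0.46 in ZT03 hearts and from -0.21 to 0.28 in ZT15 hearts. The atrial gene Sln had -0.34, 1.12, 1.54 and 0.47 in ZT03 hearts and 0.73, -0.18, -0.21 and 0.69 in ZT15 hearts, and the part of the atrial share in these results was not tested.

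Clock genes did not pass in this comparison. Among 4 activators, Npas2, a stand-in for CLOCK, came nearest, at 0.11, 0.24, 0.25 and 0.083 in ZT03 hearts, against -0.069, -0.19, -0.006 and -0.38 in ZT15 hearts. The groups did not overlap, and the difference was 0.33 ± 0.089 (adjusted p with limma 0.0717). Arntl, which codes for BMAL1, overlapped, at 0.13, 0.35, 0.027 and 0.45 in ZT03 hearts and -0.13, 0.082, -0.027 and -0.25 in ZT15 hearts (0.32 ± 0.15, adjusted p = 0.362). Of 6 repressors, 4 REV-ERB and ROR receptors, 6 output regulators and 6 output enzymes, 0 passed. The unadjusted p was under 0.05 for 3 activators, the receptor gene Rorb and the output regulator Bhlhe40, against 13% of all genes. Differences of the 4 activators ran from 0.096 to 0.33 (median 0.26). Their list means ran from 0.092 to 0.215 in ZT03 hearts and from -0.17 to -0.012 in ZT15 hearts. The 6 output regulators ran from -0.29 to -0.020. Their list means were -0.043 to -0.034 in ZT03 hearts and -0.023 to 0.11 in ZT15 hearts. Medians were -0.034 for repressors, -0.0013 for receptors and 0.027 for output enzymes. Per1 and Nr1d1, direct targets of CLOCK and BMAL1 in wild-type tissue, had differences of 0.15 ± 0.18 and -0.20 ± 0.13, both with overlapping hearts. The output gene Dbp differed by -0.063 ± 0.12. These values do not show that the genes are equal at both times, since the SE of several exceeds 0.1.

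Single features did not always carry a gene's value. Among the 239 genes, 18 were measured by several features, and in 3 of them (Aldh2, Slain2 and Npc1) the features differed in sign. Aldh2, the mitochondrial aldehyde dehydrogenase, had -1.05 ± 0.23 (SE) in one feature and 0.21 ± 0.17 in the other. Slain2, a microtubule-binding protein, had -0.94 ± 0.18 and 0.018 ± 0.070. The calls of these genes then rest on 1 feature each, and which feature reads the named gene was not tested. Both calls were also lost without ZT03 replicate 3, with adjusted p-values of 0.0636 for Aldh2 and 0.0685 for Slain2. Lpl (-0.70 and -0.13), G0s2 (-0.65 and -0.29), Bgn (-0.39 and -0.13), Malat1 (-0.60 and -0.20) and Ckm (-0.46 and -0.26) had features of the same sign and unequal size. For Hif1a the features gave 0.28 and 0.040.

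Promoters were read beside these calls because the mutated protein acts through E-boxes. The shown windows are those of the 4 named genes past the threshold that hold the palindromic E-box CACGTG, in a promoter taken as 250 bases before to 50 bases after the start of the gene. All are from RefSeq on build GRCm38.p6, 5′ to 3′ on the strand of the gene, with the E-box in capitals. The windows lie at chr12:54862879-54862978 (minus strand) for Cfl2, chr12:73907685-73907784 (plus strand) for Hif1a, chr5:28071264-28071363 (plus strand) for Insig1 and chr3:93520246-93520325 (plus strand) for S100a11.
Cfl2: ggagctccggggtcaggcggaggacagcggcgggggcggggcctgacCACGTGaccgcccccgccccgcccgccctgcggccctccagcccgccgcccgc
Hif1a: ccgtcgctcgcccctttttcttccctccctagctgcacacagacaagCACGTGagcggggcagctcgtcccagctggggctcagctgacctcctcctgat
Insig1: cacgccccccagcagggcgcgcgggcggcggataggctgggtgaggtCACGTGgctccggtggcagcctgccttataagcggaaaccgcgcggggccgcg
S100a11: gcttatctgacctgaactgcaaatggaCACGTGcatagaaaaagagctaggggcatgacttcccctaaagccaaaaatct
The E-box starts 54 bases before the gene start in Cfl2, 135 in Hif1a, 101 in Insig1 and 223 in S100a11. Cfl2, Hif1a and Insig1 were higher at ZT03 and S100a11 lower. Over the 149 protein-coding genes higher at ZT03 with a promoter in the table, 15.4% held CACGTG, as did 12.5% of the 32 lower genes, 8.30% of the 15358 protein-coding genes tested and 7.24% of all 27025 promoters. The heat shock element core GAANNTTC, searched like the E-box on both strands, was in 3.36% of the higher, 6.25% of the lower and 6.92% of all tested promoters, and in 11 of 39 promoters of the chaperone lists (28.2%), which do not include Cryab and Hspa8, the chaperone genes that had passed. A match is a description of the letters and not a bound site, and the share of G and C had a median of 60.3% in the higher genes' promoters, 59.5% in the lower genes' and 57.3% in those of all protein-coding genes. The median gene span was 35.8 kb in the higher genes, 10.8 kb in the lower genes and 18.7 kb in all protein-coding genes. Of the 461 genes above 8 before centring 4.56% were higher and 1.74% lower, against 0.801% and 0.166% of the rest. The rest were not shown to lie below 8. What length, base composition and level contribute to the calls was not tested.

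At the other 4 time points the 239 genes lay on average between their ZT03 and ZT15 values. The mean of the 195 higher genes, which were chosen on ZT03 and ZT15, was 0.22 at ZT03, then 0.096 and -0.077 at ZT07 and ZT11, then -0.14 at ZT15, and 0.017 and -0.084 at ZT19 and ZT23. Of these genes 170 had their highest mean at ZT03 and 107 their lowest at ZT15. The 44 lower genes averaged -0.19 at ZT03, then -0.076 and 0.042 at ZT07 and ZT11, then 0.16 at ZT15, and 0.015 and 0.052 at ZT19 and ZT23, with 38 lowest at ZT03 and 32 highest at ZT15. The values of ZT03 and ZT15 in this profile are fixed by the choice of the genes, which also favours highest and lowest means at these times. The other 16 hearts entered that choice only through the shared estimate of the spread.

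**Figure D3:**
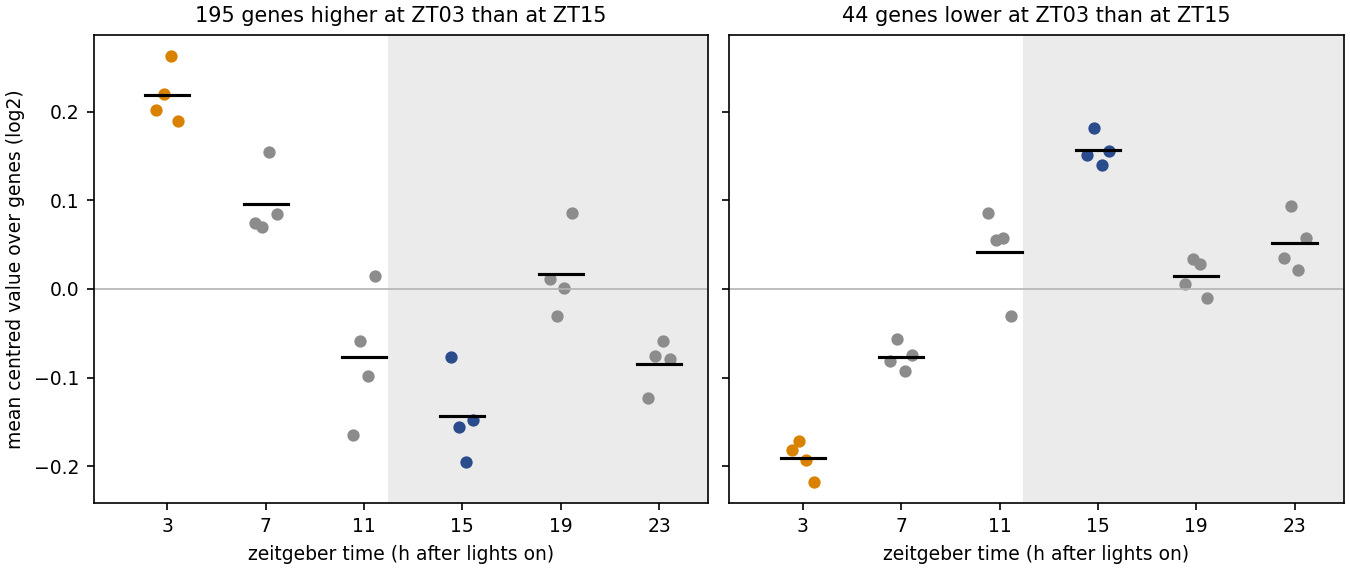
Mean centred log2 value (y axis) over the 195 genes higher at ZT03 (left) and the 44 genes lower at ZT03 (right) in each of the 24 hearts, by zeitgeber time in hours after lights on (x axis), with ZT03 hearts in orange, ZT15 hearts in blue and bars for the means of 4 hearts. The dark phase is shaded, and ZT07 lies between ZT03 and ZT11 in both panels.

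The other pairs of time points 12 h apart gave 0 genes past the threshold with limma, but 9 with quantile normalization and 1 with array weights. For ZT07 minus ZT19 there were 1238 genes (5.58%) at an unadjusted p under 0.05, and for ZT11 minus ZT23 1628 (7.34%), against 2885 (13%) for ZT03 minus ZT15. These pairs share no heart with ZT03 and ZT15. Of the 195 higher genes, 157 (80.5%) were also positive in ZT07 minus ZT19, where 48.8% of all genes were, and 98 (50.3%) in ZT11 minus ZT23, where 50.4% were. Of the 44 lower genes, 34 (77.3%) were negative in ZT07 minus ZT19 and 18 (40.9%) in ZT11 minus ZT23, against 51.2% and 49.6% of all genes. Sizes were smaller, with medians of 0.075 and -0.055 for the higher and lower genes in ZT07 minus ZT19, and 0.0010 and 0.0091 in ZT11 minus ZT23. Across all 22180 genes, which are not independent replicates, the differences of the early pair correlated with those of ZT07 minus ZT19 at r = 0.277 and with those of ZT11 minus ZT23 at r = -0.0019. Srsf5 was nearly as large in ZT07 minus ZT19 (0.46) as in ZT03 minus ZT15, whereas Scin was 0.22 there and 0.41 in ZT11 minus ZT23.

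**Figure D4:**
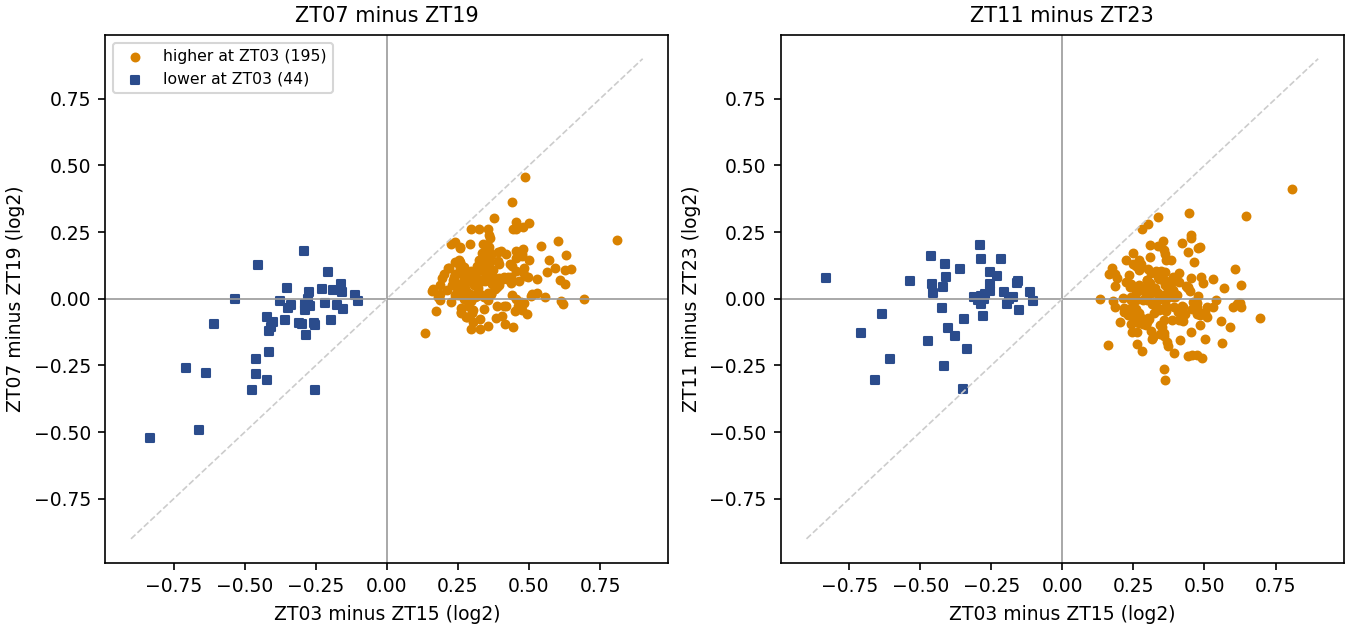
ZT03 minus ZT15 (x axis, log2) against ZT07 minus ZT19 (left, y axis, log2) and ZT11 minus ZT23 (right, y axis, log2) for the 195 genes higher at ZT03 (orange circles) and the 44 lower (blue squares), with a dashed line of equal differences. On the left 157 of 195 and 34 of 44 genes keep their sign, on the right 98 and 18.

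A test of the difference between ZT03 minus ZT15 and the mean of the later pairs called 7 genes (0.0316%), 3 positive and 4 negative, and 2090 genes (9.42%) at an unadjusted p under 0.05. All 7 were among the 239. Tm4sf1, a tetraspanin-like membrane protein of endothelial cells, lay at 0.18, 0.24, 0.35 and 0.35 in ZT03 hearts, against -0.20, -0.14, -0.21 and -0.12 in ZT15 hearts, a difference of 0.44 ± 0.073. In the later pairs Tm4sf1 had -0.11 and -0.22, and the early pair exceeded their mean by 0.60 (adjusted p = 0.0242). Rela likewise had 0.18 and 0.20 in ZT07 minus ZT19 and ZT11 minus ZT23, opposite in sign to its -0.29 in ZT03 minus ZT15 (adjusted p = 0.0242). Pcdh7, a protocadherin, was 0.26, 0.19, 0.26 and 0.21 in ZT03 hearts and -0.066, -0.29, -0.21 and -0.14 in ZT15 hearts, and Tmem63b, an ion channel opened by membrane stretch, -0.25, -0.23, -0.19 and -0.15 in ZT03 hearts and 0.032, 0.032, 0.12 and 0.14 in ZT15 hearts. Neither gene overlapped between the groups. Pcdh7, Tmem63b, Prrx1, Cryab and Xirp1 passed with differences from the later pairs of 0.41, -0.35, 0.45, -0.40 and -0.57, in that order, and adjusted p-values from 0.0242 to 0.0463. Set against ZT11 minus ZT23 alone, 27 genes passed (0.122%), 18 positive (0.0812%) and 9 negative (0.0406%), with Cryab first at -0.62 (adjusted p = 0.00313) and Hif1a, Lpl and Idh1 among them. Set against ZT07 minus ZT19 alone, 0 passed with limma, while 1387 genes (6.25%) reached an unadjusted p below that level. The count of 7 moved by over 1.5 times in 18 of the 24 fits with 1 heart left out: it became 0 without ZT03 replicate 2 or 3 or ZT15 replicate 3 or 4, 1 without ZT03 replicate 1 or ZT11 replicate 3, 2 without ZT07 replicate 1, 3 without ZT15 replicate 2 and 4 without ZT07 replicates 2 or 3, ZT11 replicate 2, ZT19 replicates 2 or 4 or ZT23 replicates 1, 3 or 4, but 13 without ZT15 replicate 1 and 35 without ZT11 replicate 4. The counts against 1 later pair alone were not recomputed with hearts left out.

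Each of the 24 hearts was left out in turn. Of the 55 called genes named by the rule, 41 lost their call without ZT03 replicate 3, 35 without ZT15 replicate 3, 31 and 30 without ZT15 replicates 4 and 2, 26 and 25 without ZT03 replicates 1 and 2 and 13 without ZT03 replicate 4, while each other heart cost at most 7. In all 24 fits 13 higher genes kept their call: Scin, Srsf5, Prdx3, Tmem65, Prrx1, Tm4sf1, Pcdh7, Prox1, Hmcn1, Nup160, Etfbkmt, Spg21 and Zc3h6. So did 8 lower genes: Cryab, Hspa8, Ier3, Lpl, Malat1, Xirp1, Tmem63b and Hes5. Among those not described above, Prox1, a homeobox factor of lymphatic endothelium and heart muscle, differed by 0.51 ± 0.085, Hmcn1, which codes for the matrix protein hemicentin, by 0.44 ± 0.067, and Hes5, a target of Notch signalling, by -0.27 ± 0.040. Nup160, a nuclear pore protein, had 0.36 ± 0.060, Etfbkmt, which methylates the electron transfer flavoprotein, 0.35 ± 0.061, Spg21 0.30 ± 0.053 and Zc3h6 0.37 ± 0.056. Weaker were the calls of G0s2 and Ube2d3, kept in 7 fits each, Dcn in 8, Rnu12 in 10 and Mrpl51 in 11. Of the 15 largest higher genes with a proper symbol Scin was kept in 24 fits, Mospd1 in 23, Mr1, Man1c1 and Pank3 in 22, and the others in 18 to 21, and the fit without ZT03 replicate 3 lost each of them other than Scin. The differences kept their sign in every one of these fits for all 55 called genes named by the rule.

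**Figure D5:**
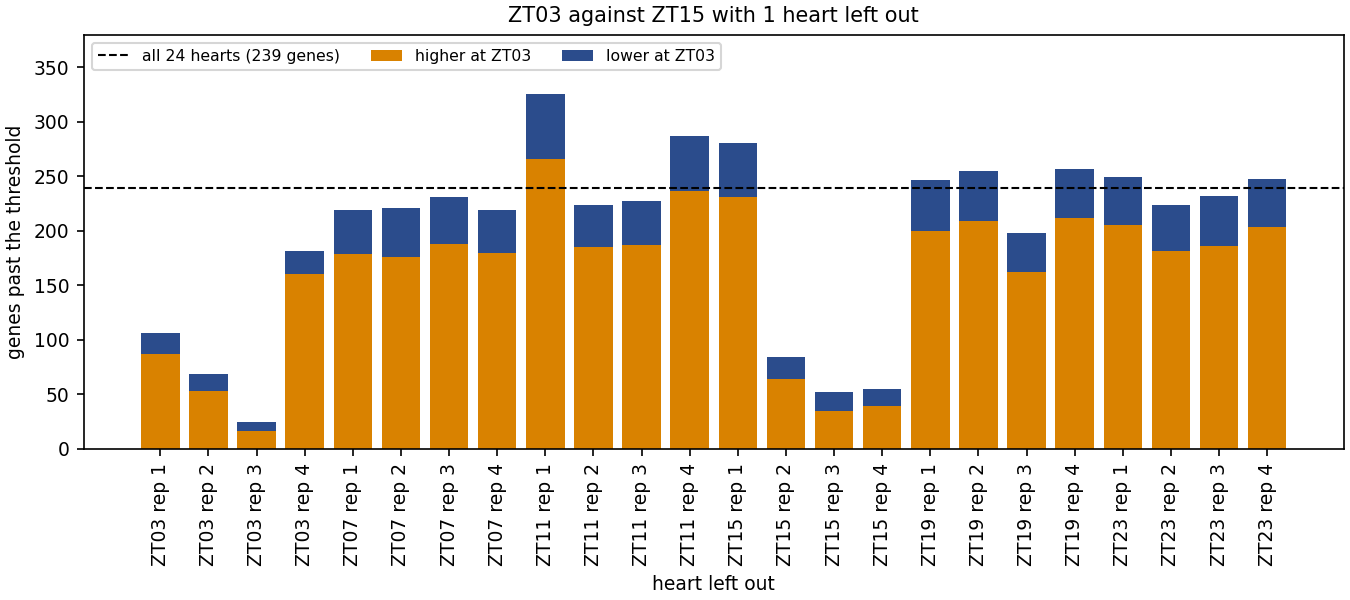
Number of genes past the threshold (y axis) for ZT03 against ZT15 when 1 of the 24 hearts is left out (x axis), with genes higher at ZT03 in orange, genes lower at ZT03 in blue and all 24 hearts as a dashed line at 239. The count fell to 25 without ZT03 replicate 3 and reached 326 without ZT11 replicate 1.

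The remaining large differences concern genes of diverse roles. Nqo2, a quinone reductase, lay at 0.41, 0.45, 0.74 and 0.14 in ZT03 hearts, against 0.019, -0.13, -0.56 and -0.09 in ZT15 hearts (0.63 ± 0.13, adjusted p = 0.0258). Both groups of Nqo2 were wide, and ZT03 replicate 4 and ZT15 replicate 1 lay closest to each other. Nudt12, an enzyme that splits NADH, was higher by 0.59 ± 0.11, Man1c1, a mannosidase of the Golgi, by 0.61 ± 0.11, and Fbxo8, an F-box protein, by 0.54 ± 0.11. Tmem59, Mospd1, Lzic and Cript were higher by 0.56 to 0.63, with adjusted p-values from 0.0122 for Mospd1 to 0.0275 for Tmem59. Among lower genes, Rtn4r, the receptor for the neurite inhibitor Nogo, lay at -0.086, -0.08, -0.26 and -0.17 in ZT03 hearts, against 0.32, 0.35, 0.24 and 0.15 in ZT15 hearts (-0.42 ± 0.079, adjusted p = 0.0189). Inka2, an inhibitor of the kinase PAK4, and Tlcd3a were lower at -0.45 ± 0.092 and -0.42 ± 0.081. Without ZT03 replicate 3 the adjusted p of these 11 genes lay between 0.0522 for Mospd1 and 0.102 for Tmem59, above the threshold. The 49 gene lists together held 929 measured genes, of which 23 were higher and 9 lower, and 24 of the lists held 0 genes past the threshold. Over all 22180 genes 195 were higher (0.879%) and 44 lower (0.198%). The lists were written with earlier results of these data known, so these counts do not test their themes.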

How the data were processed

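RNA from 24 hearts was labelled with biotin from 500 ng of total RNA and hybridised to Affymetrix arrays, per the labels' protocols. The authors deposited 1 table of values per feature and array, taken here as log2. Every feature had a median of 0 over the 24 arrays, within 5e-07, and the values ran from -1.89 to 2.11, so the deposited values are centred. The summarization, the normalization, the log base and any scan batch are not given in the sources used here, and the scale was read from the values. No filter on low values was possible on centred values. The 666 features above 8 on every array before centring were found from the coarser steps of their stored numbers.

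Features with exactly 1 gene symbol in the platform annotation (23521 of 34351) were averaged per gene, which gave 22180 genes, 1082 of them from several features. The other features, 1814 with several symbols and 9016 without, were not used for genes. A model with 6 time-point means and 18 residual degrees of freedom was fitted with limma 3.58.1 in R 4.3.3, and p-values were two-sided, with Benjamini-Hochberg adjustment over all genes and a threshold of 0.05. The script was tested on simulated data first. The named genes are the 15 largest differences in each direction among called genes with a proper symbol (gene models and clone names are counted but not named), up to 4 called members of each list (or 2 by p where 0 were called), all genes of the clock lists and up to 5 genes per direction against the later pairs. A few others, such as further list members and genes kept in every fit with 1 heart left out, were named after their values were seen. Members, lists and rule were chosen with earlier results of these data known.

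The labels call the samples biological replicates but tie no numbers across time points. Residuals of ZT03 and ZT15 hearts with the same replicate number correlated at -0.068, 0.018, -0.086 and -0.090, and the hearts were treated as unpaired. Such correlations over all genes cannot exclude a shared litter, cage or scan. Alternatives were quantile normalization, centring on array medians, the 8 arrays alone, array weights, a replicate block, robust empirical Bayes, single features, genes with a proper symbol, and leaving out each heart. Promoters and gene spans came from RefSeq on GRCm38.p6, to which 23328 features matched.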

Additional observations from a re-analysis of the deposited data

Results flagged for a closer look

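In 13 of 282 groups of 4 hearts (141 named genes at ZT03 and ZT15), or 4.61%, 1 heart stood far from the other 3, by a rule that chance meets in about 1 of 20 groups, so the number found is near that rate. Among genes that had passed the test, ZT03 replicate 2 had 0.219 in Mospd1, where the others had 0.406 to 0.429. ZT03 replicate 4 had -0.675 in Bst2, with the others at -0.249 to -0.181, and -0.557 in S100a11, with the others at -0.189 to -0.158. ZT15 replicate 1 lay apart in Nudt12 at -0.042 (others -0.329 to -0.296), in Atg12 at -0.049 (others -0.33 to -0.289) and in Ndufb5 at 0.022 (others -0.156 to -0.133). ZT15 replicate 3 had -0.414 in Cript, where the others had -0.059 to -0.024.

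Among genes that had not passed, the catalase gene Cat had 0.689 in ZT03 replicate 3, with the other ZT03 hearts at 0.126 to 0.168. The clock output gene Dbp had 0.227 in ZT03 replicate 1 (others -0.081 to -0.056) and 0.286 in ZT15 replicate 1 (others -0.03 to 0.021). Fkbp4 had 0.206 in ZT15 replicate 2 (others 0.011 to 0.035), Sel1l 0.009 in ZT03 replicate 1 (others 0.083 to 0.094) and Pax5 -0.109 in ZT03 replicate 3 (others -0.016 to 0.002).

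The difference between ZT03 and ZT15 departed from the mean of ZT07 minus ZT19 and ZT11 minus ZT23 in 7 genes by the test of that departure with limma. It was 0.60 for Tm4sf1, 0.45 for Prrx1 and 0.41 for Pcdh7, and -0.57 for Xirp1, -0.48 for Rela, -0.40 for Cryab and -0.35 for Tmem63b.

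Outside the genes, 38 features with no or several gene symbols passed the test between ZT03 and ZT15 when features were tested singly. Of 9016 features without a symbol 28 passed (0.311%), and of 1814 with several symbols 10 (0.551%), against 0.850% of the 23521 with 1 symbol.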

How the results depend on the processing

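The 239 genes (195 higher, 44 lower) became 107 (85 and 22) in the fit of the 8 arrays alone and 430 (346 and 84) with array weights. The counts were within 1.5 times of the 239 with quantile normalization (233), array medians (240), robust empirical Bayes (222), single features (238, with 73.5% higher against 81.6%) and proper symbols alone (261). Leaving out 1 heart gave 25 to 326 genes, 16 to 266 higher and 9 to 60 lower. With the replicate number as a block, whose meaning is not given, there were 197 genes (160 higher, 37 lower), 173 of them among the 239. The 7 genes that differed from the later pairs became 4 with the block and 22 with array weights, and 0 to 35 with 1 heart left out. The later pairs held 0 genes, but 9 with quantile normalization and 1 with array weights. The cause of these moves was not tested. Over the 6 alternatives fitted for single genes, the 55 called genes kept direction and call in 283 values, lost the call in 47 and reversed in 0. With 1 heart left out they kept both in 1068 values and lost the call in 252. Of the 86 named genes that were not called, 10 values under the alternatives and 13 with a heart left out passed the threshold, and a change of sign was not scored for these genes. Centred values carry no signal over background, so dim genes could not be set aside.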
